A study of Mus musculus with 18 samples.

Results

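The genes of the mitochondrial respiratory chain and ATP synthase were followed in mouse liver. They were chosen by symbol, with no measured value used to admit a gene: those starting with Ndufa, Ndufb, Ndufc, Ndufs, Ndufv, Uqcr, Cox4, Cox5, Cox6, Cox7, Cox8 or Atp5, and Sdha, Sdhb, Sdhc, Sdhd and Cyc1. The rule found 91 genes, measured by 180 probe sets, among 18193 genes with at least 1 probe set of a single symbol, and each gene was read from its probe set with the highest mean over all 18 arrays. There were 34 genes of complex I, 4 of complex II, 9 of complex III, 19 of complex IV, 17 of complex V and 8 Ndufaf genes, which encode assembly factors of complex I and are counted apart from the 83 subunit genes. Ndufa4 and Ndufa4l2 were counted with complex IV, and Cox7a2l, a factor of supercomplex assembly, stayed with complex IV by its symbol. A filter on dim probe sets kept 87 of the 91, so that 33, 4, 9, 16, 17 and 8 genes were tested in these classes; Ndufb4, Cox6b2, Cox7a1 and Cox7b2 lay below it. The genes Cox7b, Ndufa11 and Ndufs6 were not analysed here.

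Livers came from wild-type CD1 mice, an outbred strain, whose age is not given in the labels. Both a prevention and a reversal model were run, each with a chow group, a group on a high-fat diet (HFD, 60% of its energy from fat) with vehicle, and a group on HFD with CMPF, a furan fatty acid metabolite found in blood, at 6 mg/kg per day. In the prevention model vehicle or CMPF was given for 1 week and HFD followed for 4 weeks, or up to 5 weeks by the series design. For reversal, HFD was fed for 6 weeks and vehicle or CMPF was then injected for 2 weeks. Whether the chow mice were injected is not stated. Each of the 6 groups had 3 arrays, and the labels do not say whether these were 3 animals, so each p-value measures only the spread between arrays. Prevention CMPF arrays 2 and 3 agreed far more closely than any other pair of arrays (0 genes differed over 2-fold, against at least 115 in each other pair), so their mean was used as 1 sample, which leaves n = 2 in that group.

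The respiratory chain passes electrons from nutrients to oxygen across the inner mitochondrial membrane. Complex I takes electrons from NADH and complex II, which is also an enzyme of the citric acid cycle, takes them from succinate. Complex III hands them to cytochrome c, complex IV passes them to oxygen, and complex V uses the proton gradient that results to make ATP. In liver the respiratory chain also reoxidises the carriers that fat oxidation reduces. The genes measured here are all nuclear, and a transcript level is not a measure of respiration.

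Values are log2 RMA signals, and 1 unit is a doubling. Of 8 hepatocyte markers 6 were measured, and their mean lay between 13.45 and 14.09 on every array. For some other cell types the marker means of chow and HFD arrays did not overlap, in each case in a single model. In prevention the mean of the endothelial markers was 6.55 to 6.97 on chow and 7.12 to 7.29 on HFD, that of stellate cells and fibroblasts 7.63 to 7.79 and 7.86 to 8.15, and that of the exocrine pancreas 5.78 to 7.72 and 5.31 to 5.68. The cholangiocyte mean was also higher on each HFD array than on each chow array. The neutrophil ranges all but touched, at 4.504 to 5.052 on chow and 5.053 to 6.254 on HFD. Stab2, an endothelial gene, was called (0.52, limma adjusted p = 0.049). In reversal the Kupffer cell mean was 6.27 to 6.87 on chow and 6.95 to 7.72 on HFD. In prevention it overlapped, at 6.03 to 8.18 on chow and 5.94 to 8.135 on HFD. The adipocyte mean, of 3 markers with 2 below the filter on dim probe sets, was 3.82 to 4.42 on reversal chow and 3.75 to 3.81 on reversal HFD. It overlapped in prevention. The endothelial, stellate cell, pancreas, cholangiocyte and neutrophil means overlapped between chow and HFD in reversal. The part of these markers in the results was not tested. In whole tissue, fewer cells of a type and less RNA per cell cannot be told apart. Values of the 2 models lay at different array means, so levels are compared within a model. Both models held arrays that stood apart. Reversal chow array 2 lay more than 1 log2 unit below each of the other 8 arrays of its model for 8 of the 87 tested genes (9.20%) and for 3.79% of all 13221 genes tested. The other arrays did so for none of the 87. The index of RNA quality also differed between arrays. For Gapdh and for beta-actin, control probe sets read both ends of the transcript; the index averages, over the pair, the 3′ minus the 5′ signal in log2 units, and fragmented RNA raises it. In prevention it was 1.43 ± 0.512 (SD, n = 3) on chow and 2.84 ± 0.303 (SD, n = 3) on HFD, with no overlap. The exact two-sided permutation test gave p = 0.1, the smallest that 3 against 3 arrays allow. In reversal it was 3.15 ± 0.566 on chow and 2.62 ± 0.969 on HFD (SD, n = 3 each; exact permutation p = 0.6).

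HFD in the prevention model was compared with chow to ask whether the diet itself moves these genes. There were 4 genes that passed the test, 2 in each direction. Sdhd, a membrane anchor of complex II, and Atp5b, the catalytic beta subunit of ATP synthase, fell. Ndufb7 and Ndufc1, accessory subunits of complex I, rose. These 4 of 87 genes (limma, adjusted p under 0.05 over all genes tested) stand beside 5.57% of all genes tested, so the share called was near the background. At an unadjusted p under 0.05 there were 28 of the 87, against 24.8% of all genes.

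Sdhd read 11.71, 10.92 and 11.77 on the 3 chow arrays of the prevention model and 10.18, 10.47 and 9.96 on the HFD arrays. All 3 HFD arrays lay below all chow arrays, and chow array 2 was the lowest of the chow arrays. The difference was -1.26 ± 0.338 (log2, SE), a 2.40-fold lower level (limma adjusted p = 0.0449). Atp5b read 12.42, 12.20 and 12.54 on chow and 11.79, 11.81 and 11.71 on HFD. Again the groups did not overlap, and the HFD arrays lay close together. Atp5b fell by 0.62 ± 0.133 (log2, SE; limma adjusted p = 0.0237), to a level 1.54-fold lower. Ndufb7 read 10.60, 11.25 and 10.53 on chow and 11.69, 11.58 and 11.75 on HFD. Chow array 2 was the nearest to the HFD arrays for this gene too. Ndufb7 rose by 0.88 ± 0.226 (log2, SE; limma adjusted p = 0.0396), to a level 1.84-fold higher. Ndufc1 read 10.66, 10.70 and 10.74 on chow and 11.14, 11.20 and 11.23 on HFD. Its groups were the tightest of the 4 genes, and the rise was 0.49 ± 0.109 (log2, SE), or 1.40-fold (limma adjusted p = 0.028).

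**Figure D1:**
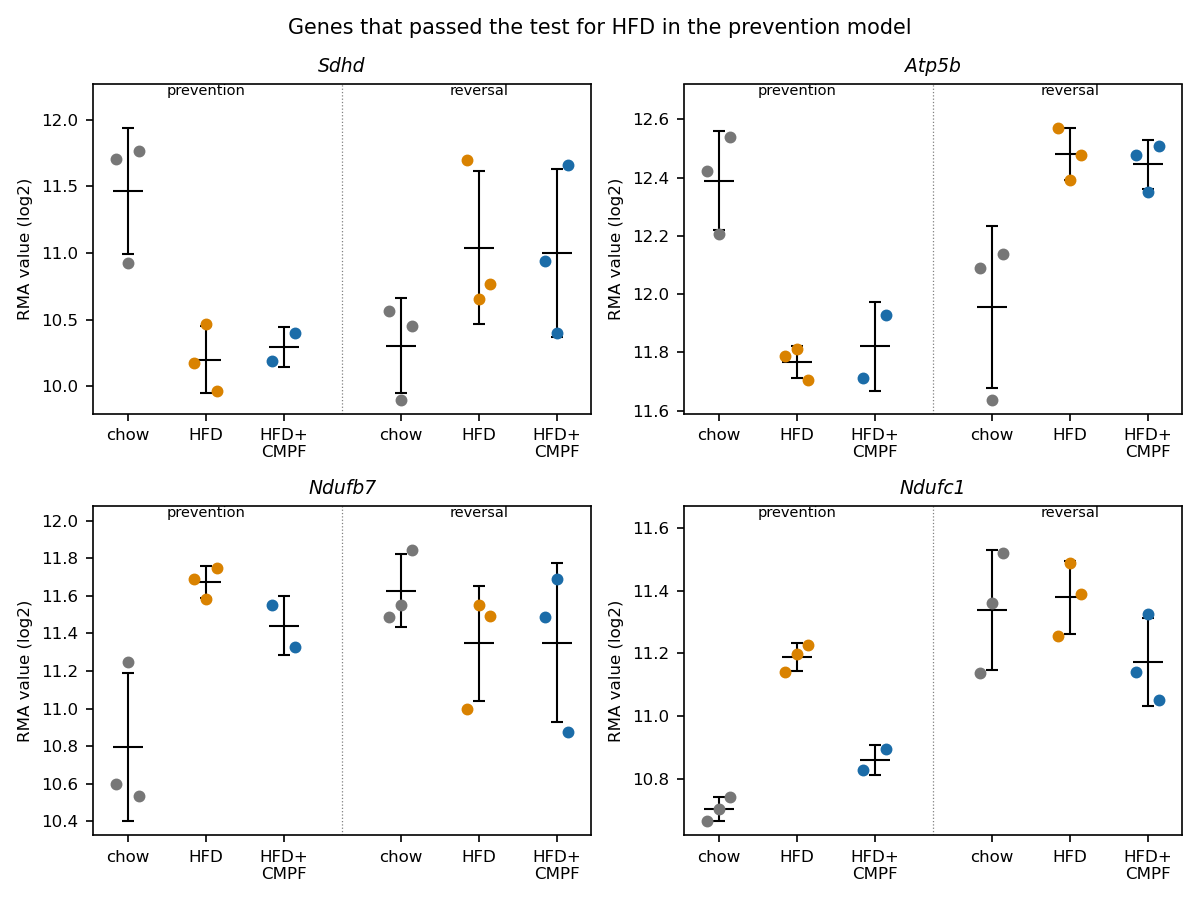
RMA signal (log2, vertical axis) of Sdhd, Atp5b, Ndufb7 and Ndufc1 in each group of both models. Points are arrays, with the near-identical prevention CMPF pair drawn as its mean, and bars give the group mean ± SD; the prevention chow points of Sdhd and Atp5b lie above the HFD points, and those of Ndufb7 and Ndufc1 below.

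A second probe set of 3 of these genes gave smaller or opposite differences. For Sdhd it gave 0.07, for Ndufb7 0.20 and for Ndufc1 -0.22 (log2, HFD minus chow). Atp5b has a single probe set. Among the 48 tested genes with at least 2 probe sets above the filter, the brightest and the next brightest had the same sign of the prevention HFD difference in 26, and 17 pairs differed by over 0.5 log2 units. In the reversal model 38 of the same 48 pairs shared a sign.

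The 250 bases before the annotated start of these 4 genes are given because they are the only ones of the set called in a comparison of 2 groups. They are from RefSeq (GRCm38.p6), 5′ to 3′ on the gene's strand. Capitals mark matches to 4 motifs, searched on both strands: GCGC and GCGC with any 2 bases between them for NRF1, CCGGAAG for ETS factors such as GABP, TCAAGGTCA for ESRRA and AAGATGGCG for YY1. The windows are chr9:50603850-50604099 on the minus strand for Sdhd, chr10:128083057-128083306 on the plus strand for Atp5b, chr8:83566508-83566757 on the plus strand for Ndufb7 and chr3:51408956-51409205 on the minus strand for Ndufc1.
Sdhd: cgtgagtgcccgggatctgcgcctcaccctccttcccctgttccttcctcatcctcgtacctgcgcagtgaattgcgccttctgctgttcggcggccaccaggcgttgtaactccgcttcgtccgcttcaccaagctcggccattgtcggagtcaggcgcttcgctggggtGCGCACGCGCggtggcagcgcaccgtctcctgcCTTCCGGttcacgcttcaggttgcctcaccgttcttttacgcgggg
Atp5b: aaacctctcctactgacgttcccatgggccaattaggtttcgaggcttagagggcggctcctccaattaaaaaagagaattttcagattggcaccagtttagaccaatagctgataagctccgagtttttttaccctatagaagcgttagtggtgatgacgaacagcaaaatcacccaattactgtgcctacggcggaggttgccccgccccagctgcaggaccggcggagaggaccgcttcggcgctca
Ndufb7: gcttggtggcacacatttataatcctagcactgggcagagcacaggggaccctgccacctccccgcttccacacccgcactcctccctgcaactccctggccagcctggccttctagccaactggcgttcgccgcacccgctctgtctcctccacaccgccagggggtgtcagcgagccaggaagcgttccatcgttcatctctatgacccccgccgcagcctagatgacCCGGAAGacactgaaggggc
Ndufc1: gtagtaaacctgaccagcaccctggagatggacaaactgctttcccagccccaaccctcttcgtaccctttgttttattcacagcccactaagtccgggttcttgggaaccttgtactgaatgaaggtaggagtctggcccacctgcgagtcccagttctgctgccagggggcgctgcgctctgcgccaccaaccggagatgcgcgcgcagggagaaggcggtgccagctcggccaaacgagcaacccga

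Sdhd holds an NRF1 and an ETS match, Ndufb7 holds an ETS match, and Atp5b and Ndufc1 hold none of the 4 in these windows. In the 50 bases after the start, which are not printed, Sdhd also has an ESRRA match and Ndufc1 a YY1 match. Promoters of 300 bases (250 before and 50 after the start) were found for 74 of the 91 genes, and 37 of these held at least 1 of the motifs, with no overlap between matches of different motifs. The NRF1 motif was in 18 of the 74 (24.3%), against 6.43% of all 27025 promoters of that length. The ETS motif was also in 18 (24.3%, against 9.12%), the YY1 motif in 6 (8.11%, against 1.49%) and the ESRRA motif in 2 (2.70%, against 0.407%). The NRF1 motif was in 7 of 31 promoters of complex I, 5 of 15 of complex V and 1 of 13 of complex IV. A match is a run of letters and not a measured binding site, and the full promoter table includes genes that liver does not express.

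By complex, the prevention differences were small and mixed. Over the 33 tested genes of complex I the median difference was 0.07, over the 4 of complex II -0.24, over the 9 of complex III 0.00, over the 16 of complex IV -0.02 and over the 17 of complex V -0.13. Over the 8 complex I assembly factors it was -0.28, and over all genes tested 0.00. For the 87 genes together the median was -0.05, and it was 0.05 after quantile normalization over both models, so no direction can be given for the set. With the 3′ to 5′ index as a covariate several of these medians changed sign: complex II was at 0.18, complex V at 0.06, the complex I assembly factors at 0.22 and the 87 genes at 0.09. Without prevention chow arrays 1 and 3, those of lowest index, complex II was at -0.05, the assembly factors at 0.02 and the 87 genes at 0.04, and without chow array 2 the assembly factors were at -0.48. Within complex I the spread was wide, from -0.93 for Ndufs4, an accessory subunit of the peripheral arm, to the 0.88 of Ndufb7. HFD and chow arrays did not overlap for 23 genes that were higher (background 12.0%) and 22 that were lower (background 17.2%).

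Members with the smallest p in each complex that missed the threshold are given as values. In complex II, Sdha, the flavoprotein that holds the succinate site, differed by -0.27 ± 0.206 (log2, SE; limma adjusted p = 0.451). Sdhb, the iron-sulfur subunit, differed by -0.15, and Sdhc, the other membrane anchor, by -0.22. For each of these 3 genes the HFD and chow arrays overlapped. In complex III, Uqcrfs1, the Rieske iron-sulfur protein, differed by -0.44 and Uqcrh, the hinge protein, by -0.53 (limma adjusted p = 0.144 and 0.151). In complex IV, Cox5b differed by 0.36 and Cox8a by -0.40 (limma adjusted p = 0.0666 and 0.181). In complex V, Atp5g2, which encodes subunit c of the rotor ring, differed by -0.86 (limma adjusted p = 0.0757). Among the assembly factors, Ndufaf8 differed by 0.43 and Ndufaf1 by -0.86 (limma adjusted p = 0.061 and 0.0841).

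The count of calls changed when single arrays were left out. With prevention chow array 1 or 3, or any 1 of the 3 HFD arrays, left out, 0 of the 87 passed. With chow array 2 left out 13 did, 7 higher and 6 lower, and of all genes tested 566 were higher and 1058 lower. The counts over all genes with the other arrays left out are not given here. With the 3′ to 5′ index as a covariate 0 of the 87 passed, and of all 13221 genes tested only 3 were higher and 14 lower. After quantile normalization 13 of the 87 passed, 11 higher and 2 lower, and of all genes 350 were higher and 493 lower.

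**Figure D2:**
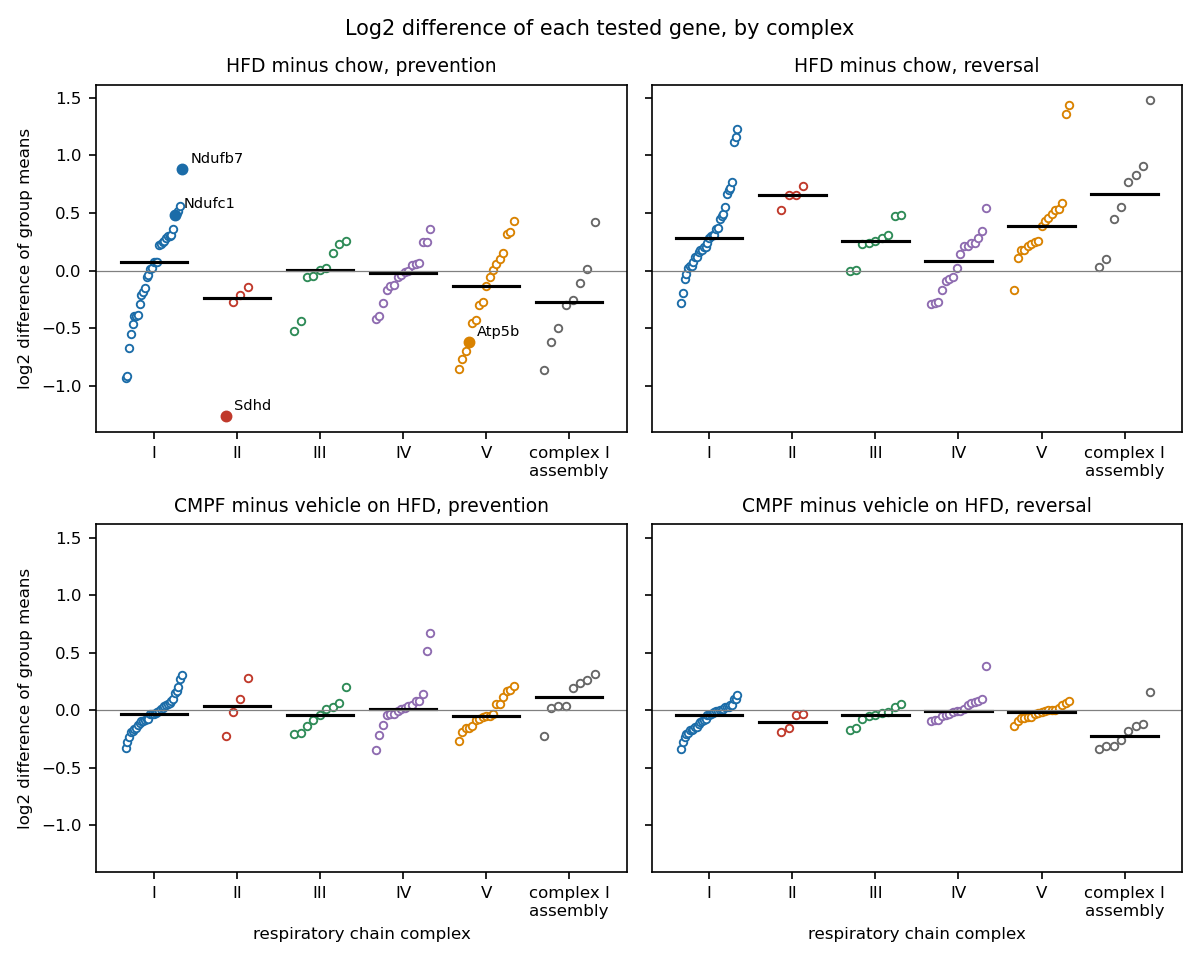
Log2 difference of group means (vertical axis) of each of the 87 tested genes by complex (horizontal axis), for HFD against chow and CMPF against vehicle in both models. Filled points are genes past the limma threshold, open points are not, and black lines are medians; the medians of complex II and of the assembly factors lie at -0.24 and -0.28 for HFD in prevention and at 0.66 and 0.66 in reversal. With the 3′ to 5′ index as a covariate, which is not drawn, the prevention medians are 0.18 and 0.22 and the reversal medians 0.45 and 0.41. In that fit the opposite direction is lost, but in prevention the index cannot be told apart from the diet. After quantile normalization, also not drawn, the medians are -0.10 and -0.21 in prevention and 0.43 and 0.49 in reversal.

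HFD in the reversal model gave differences above 0 for most of these genes, none of which passed the test. Of the 87 genes 74 were above 0, and of all 13221 genes tested 7256 were. The median over the 87 genes was 0.26 against 0.03 over all genes tested. It was 0.28 for complex I, 0.66 for complex II, 0.26 for complex III, 0.08 for complex IV, 0.39 for complex V and 0.66 for the complex I assembly factors. None of the 87 passed the limma test, with 2.45% of all genes called, while 38 had an unadjusted p under 0.05, 37 of them higher, against 22.4% of all genes in either direction. HFD and chow arrays did not overlap for 26 higher genes and for 0 lower genes, where 14.7% and 8.59% of all genes did so.

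A large share of these values rested on reversal chow array 2. It was the lowest of the 9 arrays for 65 of the 87 genes (74.7%), where it was the lowest for 29.4% of all genes tested. Without it the median over the 87 genes was 0.13, against 0.01 over all genes. Then 64 of the 87 were above 0, against 6812 of all 13221 genes tested. The complex IV median then turned to -0.04, as it also did after quantile normalization, which gave 0.10 for the 87 genes. The complex II median was 0.45 without that array and 0.43 after quantile normalization, and that of complex V 0.19 and 0.22. The count of calls stayed at 0 without it, while without chow array 1 it was 8 (7 higher and 1 lower).

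The 8 genes that set this array apart spanned 3 classes. Atp5c1, the gamma subunit that forms the shaft of ATP synthase, read 12.27, 8.12 and 11.82 on the chow arrays and 12.53, 11.85 and 12.15 on the HFD arrays. Chow array 2 was 3.59 log2 units below the next lowest of the 9 arrays. Its HFD difference was 1.44 with that array and 0.13 without it. Atp5g1, another gene for subunit c, read 10.87, 7.24 and 10.50 on chow and 11.31, 10.73 and 10.64 on HFD, and its difference was 1.36 with the array and 0.21 without. Ndufs1, the largest subunit of complex I and a carrier of iron-sulfur clusters, read 9.76, 6.98 and 9.62 on chow and 10.43, 9.69 and 9.92 on HFD. The differences of Ndufs1 were 1.23 and 0.32. For Ndufs7, a core subunit next to the quinone site, and the accessory subunit Ndufa12 the sign turned, from 0.71 to -0.56 and from 0.70 to -0.38. The remaining genes of the 8 were Ndufb3, Ndufab1, the mitochondrial acyl carrier protein, and Ndufaf5, and for these the difference stayed above 0 without the array, at 0.24, 0.44 and 0.88.

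All 4 complex II genes lay above chow on HFD in reversal. Sdha read 11.44, 10.58 and 11.05 on chow and 11.91, 11.44 and 11.69 on HFD. Sdhb read 11.68, 10.52 and 11.42 on chow and 11.88, 11.60 and 11.72 on HFD. For both genes chow array 2 was the lowest value and chow array 1 reached the level of the lowest HFD array. Sdhc read 9.93, 9.30 and 9.86 on chow and 10.54, 10.25 and 10.27 on HFD. Sdhd read 10.57, 9.90 and 10.46 on chow and 11.70, 10.66 and 10.77 on HFD. These groups did not overlap, and the Sdhd value of HFD array 1 was far above the other HFD arrays. The differences were 0.65 ± 0.206 for Sdha, 0.53 ± 0.227 for Sdhb, 0.66 ± 0.209 for Sdhc and 0.73 ± 0.338 for Sdhd (log2, SE), with limma adjusted p of 0.0999, 0.194, 0.103 and 0.219.

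In the other complexes the smallest p belonged to Atp5b, which read 12.09, 11.64 and 12.14 on chow and 12.57, 12.39 and 12.48 on HFD. All 3 HFD arrays lay above all chow arrays, and the difference was 0.52 ± 0.133 (log2, SE; limma adjusted p = 0.0541). Atp5mpl, a small subunit of ATP synthase, differed by 0.43 (limma adjusted p = 0.0816). In complex I, Ndufa9 differed by 0.66 and Ndufb2 by 0.45 (limma adjusted p = 0.0598 and 0.0822). In complex III, the core protein Uqcrc1 differed by 0.31 and Uqcrfs1 by 0.47 (limma adjusted p = 0.142 and 0.152). In complex IV, Ndufa4 differed by 0.54 and Cox5a, a nuclear subunit on the matrix side, by 0.24 (limma adjusted p = 0.115 and 0.126). Ndufaf5 differed by 1.48 and Ndufaf7 by 0.91 (limma adjusted p = 0.0848 and 0.11).

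**Figure D3:**
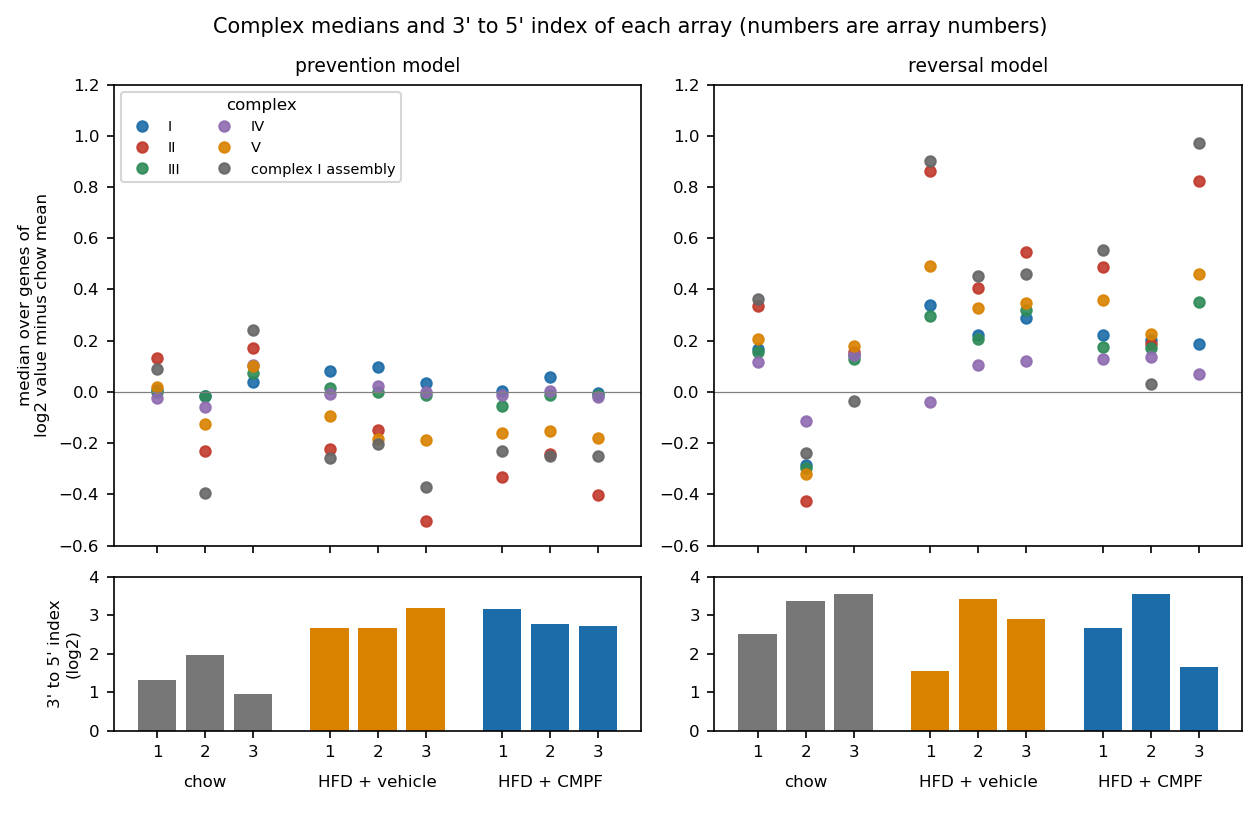
Upper panels give, for each array, the median over the tested genes of a complex of the log2 value minus the chow mean of the model; lower panels give the 3′ to 5′ index of the array (log2). Reversal chow array 2 has the lowest medians of its model for each class of genes, from -0.43 for complex II to -0.11 for complex IV, and the arrays with the lowest index, prevention chow 1 and 3 and reversal HFD 1 and CMPF 3, have the highest complex II medians of their models.

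The HFD differences of the 2 models, which share no array, were set against each other. Of the 87 genes, 43 (49.4%) were below 0 in prevention and above 0 in reversal, where 32.8% of all genes tested were. Both differences were above 0 for 31 genes, both below 0 for 5, and the remaining 8 were above 0 in prevention and below 0 in reversal. Across the 87 genes Pearson's r of the differences was -0.589, and across all genes it was -0.201; genes on the same arrays are not independent points. The difference of the HFD differences, reversal minus prevention, passed the limma test for 13 of the 87 genes, 12 higher and 1 lower. Over all genes 11.0% passed, 8.84% higher and 2.15% lower. After quantile normalization 9 genes passed, 3 higher and 6 lower, so the balance of higher and lower calls depended on the scaling. The sign turned for none of the 13 genes, and the share of all genes in that setting is not given here.

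The 13 genes lay in each class except complex IV. They were Ndufs4 (1.70), Ndufa9 (0.96), Ndufs5 (0.89), Ndufb1 (0.83) and Ndufb7 (-1.16) of complex I, Sdhd (2.00) of complex II, Uqcrh (1.01) and Uqcrfs1 (0.91) of complex III, Atp5g2 (1.31) and Atp5b (1.15) of complex V, and the assembly factors Ndufaf1 (1.42), Ndufaf7 (1.41) and Ndufaf2 (1.08), each as log2. The smallest limma adjusted p was 0.0169, for Atp5b. In complex II Sdha followed with 0.92 (limma adjusted p = 0.0548), and in complex IV Ndufa4 had 0.82 and Cox8a 0.68 (limma adjusted p = 0.0533 and 0.0841). Other probe sets did not all share these differences. For Ndufs4 the next brightest gave HFD differences of 0.13 in prevention and 0.19 in reversal, and a dimmer one -0.41 and 0.75. For Ndufb7 the other probe set gave 0.20 and 0.03, and for Atp5g2 a dim one gave -0.06 and -0.11.

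Ndufs4 read 9.71, 9.05 and 9.78 on prevention chow and 8.69, 8.86 and 8.21 on prevention HFD. In reversal it read 9.23, 8.15 and 8.69 on chow and 9.97, 9.11 and 9.31 on HFD. Its HFD arrays lay below all chow arrays in prevention and overlapped with chow in reversal. Ndufa9, which stabilises the link between the arms of complex I, read 10.58, 10.36 and 10.54 against 10.25, 10.31 and 10.03 in prevention. In reversal its chow arrays read 10.53, 9.84 and 10.16 and its HFD arrays 10.94, 10.71 and 10.87. For this gene the groups of both models were apart, in opposite directions. Uqcrh read 11.94, 11.49 and 11.83 against 11.33, 11.20 and 11.16 in prevention, and 11.74, 10.98 and 11.84 against 12.36, 11.87 and 11.77 in reversal. Atp5g2 read 10.59, 10.03 and 10.73 against 9.58, 9.80 and 9.40 in prevention, and 10.24, 9.68 and 10.16 against 10.96, 10.11 and 10.38 in reversal. Both genes had separate groups in prevention and overlapping groups in reversal.

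Of the 8 assembly factors the 3 called are given here; Ndufaf8 (0.43 and 0.10) and Ndufaf4 (0.01 and 0.03) were above 0 in both models. Ndufaf1 read 8.70, 8.16 and 8.83 on prevention chow and 7.79, 7.93 and 7.38 on HFD. In reversal it read 8.27, 7.68 and 7.74 on chow and 8.80, 8.27 and 8.28 on HFD, where the lowest HFD array reached the highest chow array. Ndufaf2 read 7.12, 6.74 and 7.37 against 6.31, 6.60 and 6.45 in prevention, and 7.12, 6.51 and 6.68 against 7.54, 7.06 and 7.06 in reversal. The groups of Ndufaf2 overlapped in reversal alone. Ndufaf7 read 6.72, 6.10 and 6.74 against 6.03, 6.08 and 5.94 in prevention, and 6.18, 5.26 and 5.67 against 7.09, 6.43 and 6.33 in reversal. Its groups were apart in both models, and the prevention chow array nearest to HFD was array 2. For Ndufb7 the reversal values were 11.49, 11.55 and 11.85 on chow and 11.00, 11.55 and 11.49 on HFD, with the low value on HFD array 1.

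**Figure D4:**
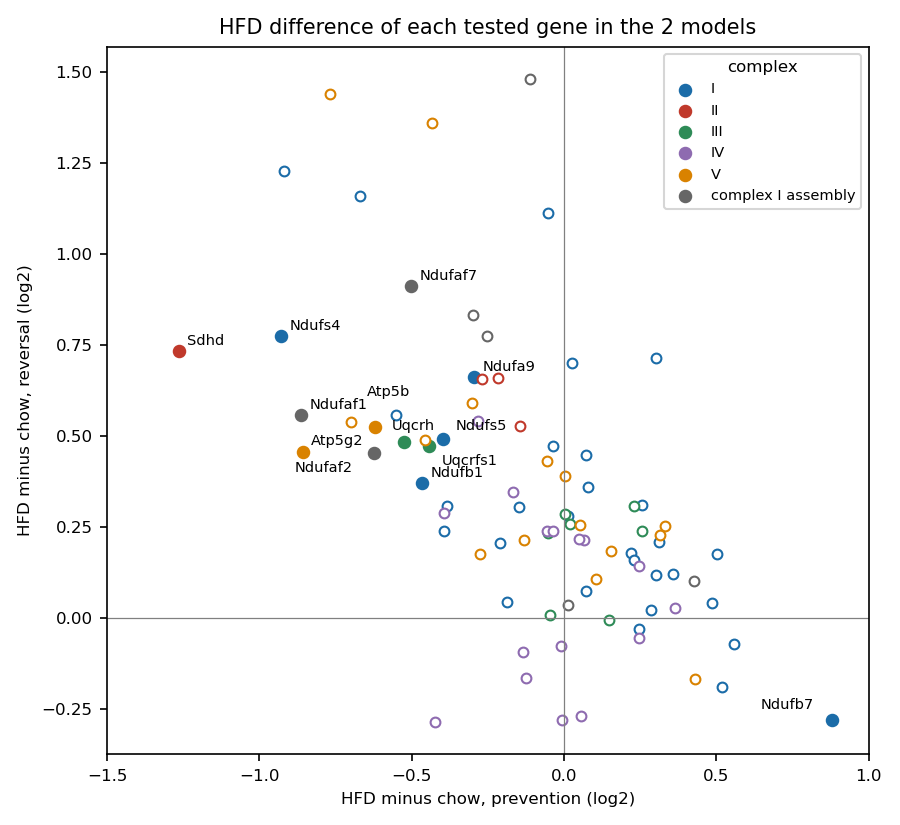
HFD minus chow (log2) in the prevention model (horizontal axis) against the reversal model (vertical axis) for each of the 87 tested genes, coloured by complex. Filled and named points are the 13 genes whose difference between models passed the limma test; 12 of them lie at the upper left and Ndufb7 at the lower right.

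The calls of this difference were sensitive to a few arrays. Without prevention chow array 1 it was passed by 0 genes, without chow array 3 by 1, without chow array 2 by 26, without reversal chow array 1 by 31 and without reversal chow array 2 by 2. Leaving out reversal HFD array 1 left 1 gene, and leaving out prevention HFD array 1, 2 or 3 left 3, 4 or 1. Leaving out a prevention CMPF sample, reversal chow array 3 or reversal CMPF array 1 left 5 or 6. The counts over all genes in these settings are not given here, so the changes cannot be called particular to these genes. With the 3′ to 5′ index as a covariate 0 of the 87 passed, and the count over all genes in that fit is not given here. In prevention the index did not overlap between chow and HFD arrays, so that fit cannot tell its part from that of the diet. Without prevention chow arrays 1 and 3 together a single chow array remains, so no count is given.

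The index moved with the members within the groups as well. In the fit with the 6 group means, the slope on the index passed the limma test for 29 of the 87 genes, 19 lower and 10 higher with a higher index, where 17.3% of all genes tested passed (9.52% lower and 7.82% higher). The median slope was -0.07 per unit of the index over the 87 genes, -0.30 over complex II, -0.43 over the complex I assembly factors, -0.13 over complex V and -0.03 over complex IV, and -0.02 over all genes. Sdhd changed by -0.61 ± 0.0849 per unit (log2, SE; limma adjusted p = 0.000784) and Ndufs4 by -0.60 ± 0.084 (limma adjusted p = 0.000784). Ndufb7 rose by 0.39 ± 0.0635 per unit (limma adjusted p = 0.00153). For Atp5b the slope was -0.13 (limma adjusted p = 0.2) and for Ndufc1 0.13 (limma adjusted p = 0.0653). The 4 arrays of lowest index were prevention chow 1 and 3, reversal HFD 1 and reversal CMPF 3, and on these Sdhd had the highest values of its model and Ndufb7 the lowest.

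**Figure D5:**
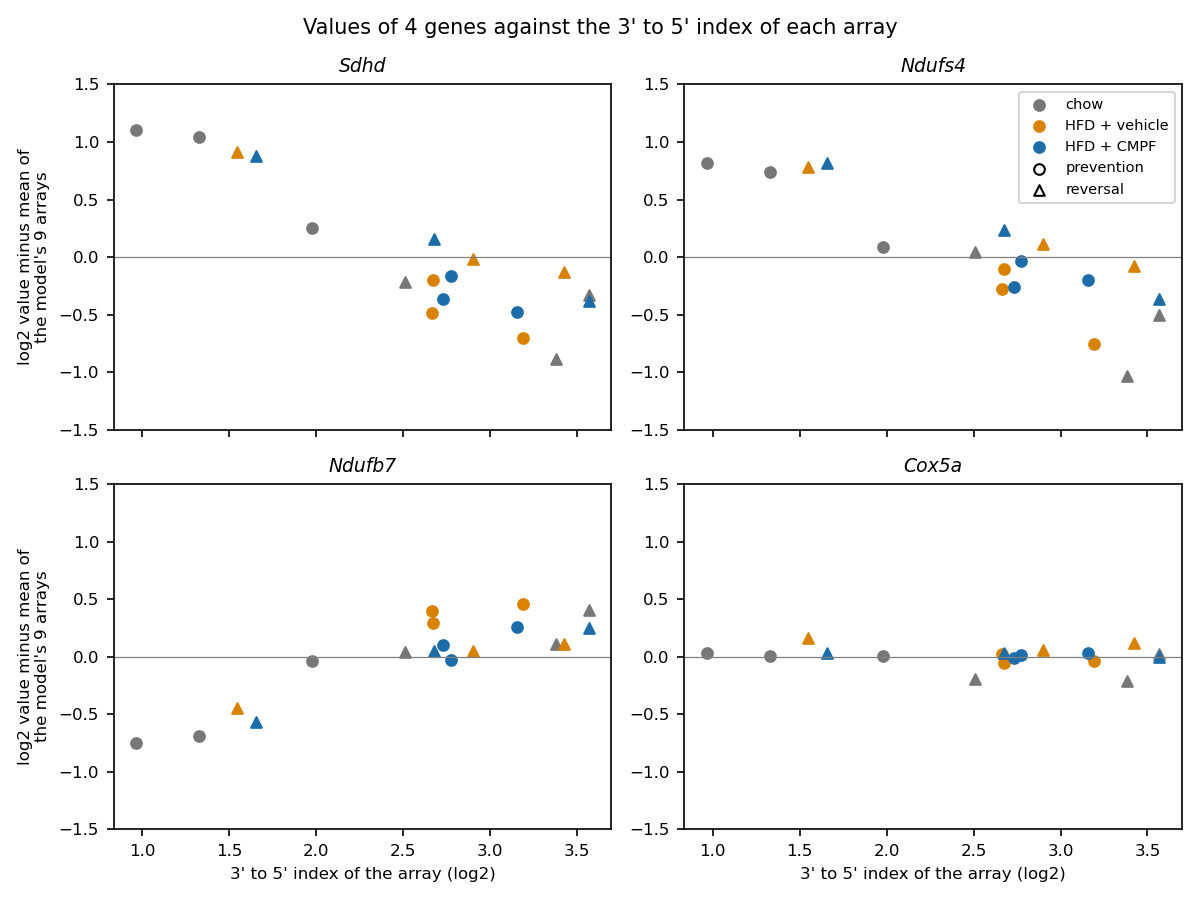
Log2 value minus the mean of the model's 9 arrays (vertical axis) against the 3′ to 5′ index of the array (log2, horizontal axis) for Sdhd, Ndufs4, Ndufb7 and Cox5a, chosen after their values were seen. Each point is 1 array; Sdhd and Ndufs4 are lower and Ndufb7 is higher on arrays of high index, and Cox5a has a slope of 0.00.

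CMPF was compared with vehicle on HFD to ask whether it alters these genes. In neither model did a gene of the set pass the test. In prevention the median difference over the 87 genes was -0.01, and 0 of the 87 passed (limma; 0.00% of all genes tested), with 3 at an unadjusted p under 0.05, against 8.02% of all genes. Those were Ndufc1 (-0.33 ± 0.122), Cox7a2l (-0.34 ± 0.153) and Cox8b (0.67 ± 0.297; log2, SE, with n = 2 for CMPF and 3 for vehicle), with limma adjusted p of 0.529, 0.618 and 0.615. Ndufc1 read 10.83 on CMPF array 1 and 10.90 as the mean of arrays 2 and 3, and both were below the vehicle arrays and above the chow arrays of the prevention model. In the classes, the medians ran from -0.05 for complex V to 0.12 for the complex I assembly factors. The 95% confidence interval of the CMPF difference lay within 1 log2 unit of 0 for 76 of the 87 genes. CMPF and vehicle arrays did not overlap for 10 higher genes and 20 lower genes, where 19.7% and 11.1% of all genes did so.

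Values of the 2 genes with the smallest p in the remaining classes follow for prevention. Ndufb1 differed by 0.27 in complex I, Sdhc by 0.28 and Sdhb by -0.22 in complex II, and Uqcrc1 by -0.19 and Uqcr11 by -0.21 in complex III. Atp5e and Atp5pb, the epsilon and the b subunit of ATP synthase, differed by -0.26 and 0.17, and the assembly factors Ndufaf8 and Ndufaf4 by -0.23 and 0.23. The limma adjusted p of each was at least 0.695.

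In reversal the median was -0.03, 0 of the 87 passed (limma; 0.0378% of all genes tested), and 1 had an unadjusted p under 0.05, against 4.80% of all genes. That was Ndufb1, an accessory subunit of complex I, at -0.34 ± 0.135 (log2, SE; limma adjusted p = 0.911). The interval lay within 1 log2 unit of 0 for 79 of the 87 genes and within 0.5 for 53. CMPF and vehicle arrays did not overlap for 0 higher and 6 lower genes, where 3.79% and 5.04% of all genes did so. The intervals bound the size of a CMPF effect at this number of arrays and do not show that there is none. The class medians ran from -0.22 for the complex I assembly factors to -0.01 for complex IV. Complex II read 11.52, 11.18 and 11.77 for Sdha, 11.69, 11.53 and 11.89 for Sdhb, 10.10, 9.91 and 10.59 for Sdhc and 10.94, 10.40 and 11.66 for Sdhd on the CMPF arrays. Each of these overlapped with the vehicle arrays given above, and array 3, of low index, was the highest each time. The other genes with the smallest p were Ndufc1 (-0.21), Uqcrc2 (-0.17), Uqcrfs1 (-0.15), Cox8b (0.39), Cox5a (-0.09), Atp5pb (-0.14), Atp5h (-0.07), Ndufaf2 (-0.31) and Ndufaf4 (0.16). The CMPF differences of the 2 models did not differ for any gene past the threshold (0 of 87, limma; 3 at an unadjusted p under 0.05, against 7.93% of all genes; 0.00% of all genes passed), and the smallest adjusted p was 0.507, for Ndufb1.

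CMPF on HFD was also set against chow, a comparison that shares its chow arrays with that of HFD. In prevention 0 of the 87 passed (limma; 0.00% of all genes tested), with 6 at an unadjusted p under 0.05, against 9.99% of all genes. Sdhd differed by -1.17, Atp5b by -0.57 and Ndufb7 by 0.64 (limma adjusted p = 0.399, 0.35 and 0.449). Uqcrh differed by -0.46, Cox5b by 0.24 and Ndufaf1 by -0.55. In reversal 0 of the 87 passed (2.00% of all genes tested), with 19 at an unadjusted p under 0.05, all higher, where 12.0% of all genes were. The median was 0.21, and 73 of the 87 genes were above 0, against 7254 of all 13221 genes tested. Without reversal chow array 2 the median was 0.08 with 60 above 0, against 6720 of all genes. After quantile normalization it was 0.05 with 56 above 0, against 6424 of all genes. With all arrays the smallest p in the classes belonged to genes such as Atp5b at 0.49, Ndufa9 at 0.56, Uqcrc1 at 0.33, Ndufa4 at 0.51, Sdhc at 0.50 and Ndufaf5 at 1.17 (limma adjusted p from 0.0743 to 0.22).

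Complex IV has subunits in paired forms, of which one is made in liver and most tissues and the other in a narrower set of tissues. Cox4i1, the common form of subunit 4, read 12.57, 12.45 and 12.76 on prevention chow and 12.51, 12.63 and 12.47 on HFD. The common forms Cox4i1, Cox6a1, Cox6b1, Cox7a2 and Cox8a had HFD differences of -0.06, 0.07, 0.25, 0.05 and -0.40 in prevention and of 0.24, 0.21, -0.06, 0.22 and 0.29 in reversal, none called. Of the other forms, Cox7a1 and Cox6b2 had means of 3.66 and 3.75 over all arrays, below the filter at 4.01. Cox4i2 lay between 4.07 and 4.87 on all 18 arrays, just above that filter, and Cox6a2 between 4.66 and 5.40. Cox8b, the heart and muscle form of subunit 8, read 5.42, 5.36 and 5.72 on prevention chow, 5.19, 5.23 and 4.82 on HFD, and 5.49 and 6.02 on the 2 CMPF samples. In reversal it read 4.93, 4.70 and 3.95 on chow, 4.22, 4.30 and 4.20 on HFD and 4.07, 5.10 and 4.72 on CMPF. Its CMPF samples were the highest of the prevention HFD arrays, and no difference of this gene passed. The summed level of 7 muscle markers, as their mean, lay between 4.28 and 5.85 on prevention chow, between 4.77 and 5.18 on HFD and between 4.84 and 5.66 on CMPF; 2 of the 7 were below the filter, and their part in the Cox8b values was not tested.

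Other genes of mitochondrial energy supply were read from lists of textbook members. Genes of the mitochondrial and the cytosolic ribosome were taken by symbol (starting with Mrpl or Mrps, or with Rpl or Rps and a digit). The symbol rule can take in genes of other proteins, such as Rps19bp1. Of 36 tested assembly factors outside the Ndufaf family, 1 rose and 4 fell on HFD in prevention (limma), beside the 1.74% and 3.83% of all genes that did. Lrpprc, which stabilises mitochondrial mRNAs, fell by 1.32, Tmem70, an assembly factor of ATP synthase, fell by 1.098, and Uqcc2, of complex III, rose by 0.58 (log2). Of 20 genes of electron entry and carriers, 3 rose and 3 fell: Prodh, proline dehydrogenase, rose by 1.43, Coq8a, needed for coenzyme Q, rose by 0.83, and Etfdh, which feeds electrons from fat oxidation to coenzyme Q, fell by 1.09. Of 12 citric acid cycle genes 1 rose and 3 fell, the latter being Dld (-1.76), Idh3a (-1.03) and Fh1 (-0.89). Of 15 regulators 3 fell, Gabpa (-0.91), Tfb2m (-0.70) and Tfb1m (-0.62), of which Gabpa encodes the DNA-binding subunit of GABP and the others act in mitochondrial transcription and ribosomal RNA methylation. Of 12 genes of nucleotide and phosphate transport and the inner membrane, Chchd3 fell by 1.04 and Chchd6 rose by 0.72; both encode parts of the cristae junction. Of 76 genes of the mitochondrial ribosome 1 rose and 5 fell, and of 44 of the cytosolic ribosome 2 fell. Among these, Mrps31 (-0.78), Mrpl17 (-1.14) and Mrpl50 (-1.28) encode mitochondrial ribosomal proteins, and the cytosolic genes were Rpl22l1 (-1.42) and Rps7 (-0.69). With the RNA quality index as a covariate each list had 0 called genes, and of all 13221 genes tested only 3 rose and 14 fell. The index did not overlap between these chow and HFD arrays, so its part and that of the diet cannot be told apart. The median moved from -0.19 to 0.08 with the covariate for the assembly factors and from -0.24 to 0.02 for the mitochondrial ribosome. Without prevention chow arrays 1 and 3, which leaves 1 chow array, these medians were -0.03 and -0.04. A slope on the index, lower at a higher index, was called for 12 of the 36 assembly factors, against 9.52% of all genes.

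In reversal the called genes of these lists all rose on HFD (limma; 2.17% of all genes rose). They were 2 of 36 assembly factors, Nubpl (1.14), which inserts iron-sulfur clusters into complex I, and Sco1 (0.49), which brings copper to complex IV. Coq10b (0.80) was the 1 of 20 in electron entry and carriers. Suclg1 (0.66) and Suclg2 (0.69), subunits of succinyl-CoA synthetase, were the 2 of 12 in the citric acid cycle, and Letm1 (0.93) and Chchd6 (0.81) the 2 of 12 of the inner membrane. Of 76 mitochondrial ribosome genes 4 rose, among them Mrps25 (0.83), Mrpl19 (0.61) and Mrpl3 (0.53). None of the 15 regulators and none of the 44 cytosolic ribosome genes passed, where 3 and 2 had an unadjusted p under 0.05, all lower. The list medians in reversal were 0.42 for the assembly factors, 0.36 for electron entry, 0.48 for the citric acid cycle and 0.38 for the mitochondrial ribosome, beside 0.07 for the cytosolic ribosome and 0.03 for all genes. Without reversal chow array 2 these medians were 0.24, 0.21, 0.27, 0.25, -0.10 and 0.01, and the called genes were 1 assembly factor, 2 of electron entry, 0 of the citric acid cycle, 1 of the inner membrane and 1 of the mitochondrial ribosome.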

How the data were processed

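Liver RNA was labelled from 200 ng and hybridised to Affymetrix mouse arrays, per the labels' protocols. The authors deposited log2 RMA values made with Affymetrix Expression Console 1.1, per the submitters' processing notes; which arrays were normalised together is not given in the sources used here. Of 45101 probe sets, 34945 have 1 gene symbol in the platform annotation, which can be old. The 40% with the lowest mean were dropped (cut at 4.01, log2), each gene was read from its brightest probe set, and 13221 genes were tested. Of the chosen probe sets of the respiratory chain genes, 22 carry the suffix _s_at or _x_at, whose probes may also bind other transcripts.

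Groups were compared with limma 3.58.1 (R 4.3.3) on 17 samples in 1 model of 6 group means, with 11 residual degrees of freedom and Benjamini-Hochberg adjustment over all genes tested (threshold 0.05). The fit was tested on simulated data. Arrays give no depth, and the number of arrays limits the precision.

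The members, gene lists and tests were chosen with earlier results of these data known. Genes named are the members called, the 2 with the smallest p in each complex, all of complex II, the complex IV isoforms and up to 3 called genes of each list by p. The 8 genes low on reversal chow array 2 were chosen after their values were seen. Of the listed pathway genes, Cox14, Taco1, Pet117, Pdss1, Atp5if1, Ucp2 and Phb1 were not analysed here.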

Additional observations from a re-analysis of the deposited data

Results flagged for a closer look

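The HFD differences of 13 genes differed between the models by the limma test of the difference itself (reversal minus prevention, log2). They were 0.96 for Ndufa9, 0.83 for Ndufb1, -1.16 for Ndufb7, 1.70 for Ndufs4 and 0.89 for Ndufs5 in complex I and 2.00 for Sdhd in complex II. In complex III they were 0.91 for Uqcrfs1 and 1.01 for Uqcrh, and in complex V 1.15 for Atp5b and 1.31 for Atp5g2. The assembly factors Ndufaf1, Ndufaf2 and Ndufaf7 had 1.42, 1.08 and 1.41. No sign turned for any of the 13 in the alternatives run, but other probe sets of Ndufs4, Ndufb7 and Atp5g2, given above, did not all share these differences. Atp5b stayed past the threshold in 24 of 27 alternatives, with differences from 0.82 to 1.24, and Sdhd and Ndufb1 in 20 of 27 each. Ndufaf2 and Uqcrh stayed past it in 8 of 27 each and Ndufaf7 in 8 of 26. No group had more than 3 arrays, so single arrays were not tested as outliers within a group.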

How the results depend on the processing

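The count of called genes for HFD in prevention was 4. With all 18 arrays it was 7, after quantile normalization 13 and with the arrays of the model only 11. It was 0 with the 2 groups only, 1 with probe sets averaged per gene and 0 with the index as a covariate. With single samples left out it ran from 0 to 13. For HFD in reversal it was 0, and it was 2 with all 18 arrays, 1 with the mean of probe sets, 2 with the index and from 0 to 8 with single samples left out. For the difference of HFD effects it was 13, and it was 8 with no filter and 0 with the index. It was 2 without reversal HFD array 1 and CMPF array 3, and from 0 to 31 with single samples left out. For CMPF on HFD against chow it was 0 to 1 in reversal with single samples left out. The remaining alternatives, with another filter or without cross-hybridising probe sets, stayed within 1.5 times of these counts. CMPF against vehicle in both models, CMPF on HFD against chow in prevention, and the difference of CMPF effects kept 0 called genes in each alternative run. The prevention gap of the index was from 1.19 to 1.695 with single arrays left out. The replicate block gave 3 called genes for the prevention diet comparison, 1 for the reversal one and 19 for the difference; numbers do not pair the arrays, since correlations of same-numbered arrays ran from -0.368 to 0.442. Leaving out prevention chow 1 and 3, or reversal HFD 1 and CMPF 3, was chosen after seeing the data. The former leaves a single prevention chow array, so its counts are not given. The calls over all genes moved as well. For HFD in prevention they were 3 higher and 14 lower with the index, and 566 higher and 1058 lower without prevention chow array 2. No cause of these changes was tested. With 3 arrays a group, the 95% interval of a difference had a median half-width of 0.31 log2 units for these genes.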

Other observations

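The mitochondrial ribosome, which translates the few respiratory chain subunits encoded in mitochondria, was higher in the difference of HFD effects (reversal minus prevention) for 20 of 76 genes and lower for 0 (limma), beside 8.84% and 2.15% of all genes tested. Mrps22 had 1.99, Mrpl50 1.83 and Mrpl19 0.92 (log2). Of 12 citric acid cycle genes 6 were higher, among them Fh1 (1.45), Idh3a (1.43) and Suclg1 (0.95). Of the 15 regulators, Gabpa (1.29) and Tfb2m (1.01) were higher and Nrf1 (-0.98) was lower. The slope on the 3′ to 5′ index passed the limma test for 29 of the 76 mitochondrial ribosome genes in the lower direction and for 5 in the higher, against 9.52% and 7.82% of all genes. With the index as a covariate 0 genes of these 3 lists were called in the difference, but the index did not overlap between prevention chow and HFD arrays. Without reversal chow array 2 there were 4 of the mitochondrial ribosome, 5 of the citric acid cycle and 1 regulator. The median difference of the mitochondrial ribosome was 0.70, and it was 0.26 with the covariate and 0.39 after quantile normalization.

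Reversal chow array 2 was more than 1 log2 unit below the other 8 arrays of its model for 501 genes, and none of the other 17 arrays was so for more than 11 genes of its model. Its median correlation with the other arrays of its model was 0.948.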
